A study of Caenorhabditis elegans with 4 samples.

Results

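The cuticle of Caenorhabditis elegans is a collagen matrix that the epidermis lays down before hatching and replaces at each larval molt. Mutations in particular cuticle collagen genes make the animal short and fat (Dpy) or squat (Sqt), which is how these genes were found and named. One class, the furrow collagens, forms the circumferential furrows of the cuticle, and in cycling larvae its genes are transcribed early in each round of cuticle synthesis, before other collagens such as dpy-13.

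The genes described here are 10 body-shape collagens taken by name from the 20392 genes of the deposited count table. They are 5 furrow collagens, dpy-2, dpy-3, dpy-7, dpy-8 and dpy-10, and 5 others, dpy-5, dpy-13, dpy-14, dpy-17 and sqt-3. All 10 had an entry in the table. RNA was sequenced from whole L1 larvae, the larval stage that follows hatching. Wild type larvae of strain N2 were raised on bacteria carrying the empty RNAi vector L4440, and larvae of strain GW1183, with genotype met-1-/-, on bacteria for RNAi of mes-4. Both genes encode histone H3 lysine 36 methyltransferases, and the larvae of the second group, met-1-/- with mes-4 RNAi, are called the mutant larvae here. Parents of both groups fed on the RNAi bacteria for 60 to 65 h at 20 °C, and their progeny hatched without food for 18 h and were refed the same bacteria for 2 h and 30 min. Each group had 2 libraries, which the submitters call independent biological replicates. The second group combined a mutant strain with RNAi given through food, so the mutation, the strain and the RNAi cannot be told apart.

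Library totals ranged from 29081819 to 35106597 counts. The met-1 transcript was at 172.4 and 158.6 CPM (counts per 1000000 counts of the library) in wild type replicates 1 and 2 and at 119.8 and 110.5 CPM in mutant replicates 1 and 2. The mes-4 transcript was at 34.4 and 35.9 CPM against 27.3 and 28.1 CPM. Both targeted transcripts were lower without overlap, as were 18.3% of tested genes. The met-1 difference had an adjusted p of 0.111 with edgeR and 0.0039 with DESeq2, and the mes-4 difference one of 0.267 with edgeR and 0.337 with DESeq2. The mes-4 RNA was still present at 0.795 and 0.782 times wild type within replicate numbers 1 and 2. All 6 epidermal markers had counts in every library. The adult collagen gene col-19 had between 0 and 5 counts in a library, and the yolk gene vit-5 had 0 in all 4, where a count of 0 allows up to 0.0855 to 0.103 CPM. The yolk gene vit-2 had 2 to 9 counts, and vit-6 had 12 in each wild type library against 102 and 164 in mutant replicates 1 and 2 (edgeR adjusted p = 0.0578, DESeq2 adjusted p = 2.06e-07).

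Most of the body-shape collagens separated the libraries by replicate number and not by group. In 7 of the 10 genes, namely dpy-2, dpy-3, dpy-7, dpy-10, dpy-14, dpy-17 and sqt-3, both replicate 1 libraries lay above both replicate 2 libraries. The difference was 2.19-fold to 5.46-fold in wild type and 4.67-fold to 17.02-fold in mutant larvae. Replicate 1 was thus at least 2-fold above replicate 2 in both groups for these 7, as for 4.31% of tested genes. The share of tested genes with such a separation at any fold was not counted. None of the 9 genes tested between the groups passed, where edgeR called 0% of all tested genes. The genes dpy-8, dpy-5 and dpy-13 did not share the pattern. For dpy-8 and dpy-13 the groups did not overlap, nor did they for 45.3% of tested genes.

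The abundant members were dpy-14, dpy-17 and sqt-3. The gene sqt-3 (WBGene00005018, chromosome V) encodes a collagen whose C-terminal processing depends on the astacin protease DPY-31. It stood at 49.8 CPM in wild type replicate 1 and 10.2 CPM in wild type replicate 2, and at 84.4 and 7.46 CPM in mutant replicates 1 and 2. The 2 replicate 1 libraries were therefore high and the 2 replicate 2 libraries low, with the mutant libraries at both extremes. Replicate 1 exceeded replicate 2 by 4.87-fold in wild type, with an exact 95% interval from counting error alone of 4.33 to 5.50. In mutant larvae it did so by 11.3-fold (9.95 to 12.9).

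The gene dpy-17 (WBGene00001076, chromosome III) encodes a collagen tied by genetics to SQT-3 and DPY-31. It measured 47.0 and 9.70 CPM in wild type and 84.8 and 4.98 CPM in mutant larvae, replicate 1 before replicate 2. Its libraries fell in the same order as those of sqt-3, with folds of 4.85 (4.29 to 5.49) in wild type and 17.02 (14.6 to 19.95) in mutant larvae. The gene dpy-14 (WBGene00001075, chromosome I), which encodes another cuticle collagen, was at 75.7 and 13.9 CPM in wild type and at 132.4 and 8.46 CPM in mutant larvae. Again the mutant libraries were the highest and the lowest of the 4. The fold between replicates was 5.46 (4.94 to 6.05) and 15.6 (13.9 to 17.7). Together these 3 genes held 80.8% to 91.4% of the summed CPM of the 10 members in a library.

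Among the furrow collagens, dpy-10 (WBGene00001072, chromosome II) showed the widest separation in wild type. It had 5.20 and 1.47 CPM in wild type and 8.77 and 0.741 CPM in mutant replicates 1 and 2. Its fold was 3.53 (2.55 to 4.97) and 11.8 (7.89 to 18.5). The furrow collagen gene dpy-7 (WBGene00001069, chromosome X), whose promoter is widely used to drive expression in the larval epidermis, had 4.66 and 1.96 CPM in wild type and 7.70 and 0.627 CPM in mutant larvae. Replicate 1 was 2.37-fold (1.76 to 3.23) and 12.3-fold (7.92 to 20.01) above replicate 2. For both genes the order of the libraries was that of sqt-3.

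The other furrow genes that shared the pattern were dpy-2 and dpy-3. The gene dpy-2 (WBGene00001064, chromosome II) measured 3.97 and 1.78 CPM in wild type and 5.98 and 1.28 CPM in mutant larvae, for folds of 2.23 (1.63 to 3.09) and 4.67 (3.35 to 6.63). The gene dpy-3 (WBGene00001065, chromosome X) measured 1.41 and 0.644 CPM in wild type and 3.78 and 0.342 CPM in mutant larvae, for folds of 2.19 (1.29 to 3.86) and 11.1 (6.09 to 22.1). The lowest of these values rested on 12 reads of dpy-3 in mutant replicate 2, so its interval is wide.

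The furrow collagen gene dpy-8 (WBGene00001070, chromosome X) did not follow the other furrow genes. It was at 2.10 and 2.06 CPM in wild type and at 1.68 and 1.28 CPM in mutant larvae. Replicates 1 and 2 were close in each group, with folds of 1.02 (0.722 to 1.45) and 1.31 (0.859 to 2.02), both intervals spanning equality. It had 45 to 70 reads per library, and dpy-3, whose fold was beyond counting error in both groups, had 12 to 110. In the WBcel235 annotation dpy-8 overlaps the protein-coding gene C31H2.14 on the opposite strand. The overlap is one of whole gene spans, and whether exons overlap was not checked. The strand setting of the counting is not given in the sources used here either. Whether reads of C31H2.14 were counted for dpy-8 is therefore not known. An overlap of this kind also applies to sqt-3, with the noncoding gene F23H12.13 on the opposite strand, and to dpy-10, with T14B4.19 on the same strand.

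Close to the detection limit were dpy-5 and dpy-13, collagens of the cuticle outside the furrows. The gene dpy-5 (WBGene00001067, chromosome I) had 12 and 2 reads in wild type and 4 and 5 reads in mutant replicates 1 and 2. It did not pass the filter on low counts and was not tested. The gene dpy-13 (WBGene00001074, chromosome IV) had 10 and 2 reads in wild type and 12 in each mutant library. In wild type the fold between replicates was 5.88 (1.31 to 54.1) for dpy-5 and 4.90 (1.04 to 46.0) for dpy-13. In mutant larvae it was 0.966 (0.192 to 4.49) and 1.21 (0.496 to 2.94), where the interval of dpy-13 ends below the 3.35 to 6.63 of dpy-2 and that of dpy-5 overlaps it.

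**Figure D1:**
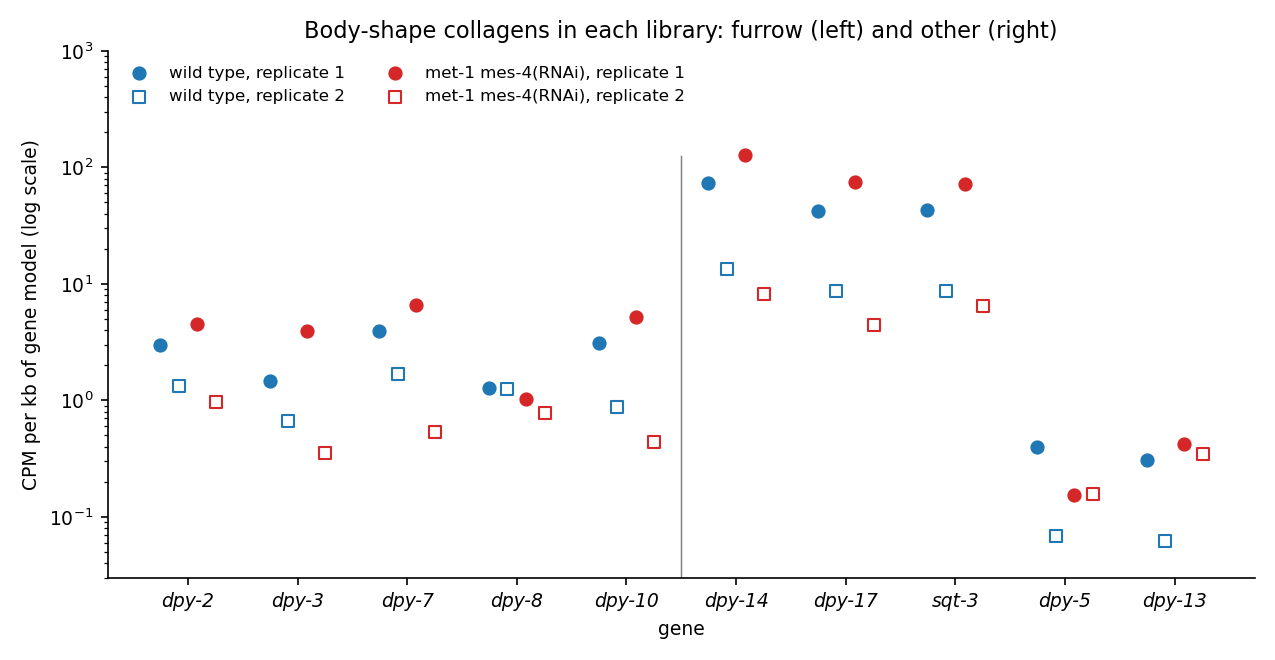
Level of each of the 10 body-shape collagens in CPM per kb of gene model (log axis) in the 4 libraries, circles for replicate 1, open squares for replicate 2, blue for wild type and red for mutant larvae (met-1-/- on mes-4 RNAi). In dpy-2, dpy-3, dpy-7, dpy-10, dpy-14, dpy-17 and sqt-3 the red circle is highest and the red square lowest, while the 4 values of dpy-8 lie between 0.782 and 1.28 CPM per kb.

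Levels of different genes were compared per kb of the deposited gene length. In wild type replicate 1 the order was dpy-14 at 72.8 CPM per kb, sqt-3 at 42.6, dpy-17 at 41.7, dpy-7 at 3.96, dpy-10 at 3.08, dpy-2 at 2.99, dpy-3 at 1.47, dpy-8 at 1.28, dpy-5 at 0.401 and dpy-13 at 0.305. Neighbours in this order that did not differ beyond counting error were sqt-3 and dpy-17, dpy-10 and dpy-2, dpy-3 and dpy-8, and dpy-5 and dpy-13. The gap between dpy-17 and the most abundant furrow collagen, dpy-7, was 10.5-fold (8.92 to 12.5). In mutant replicate 2 the order was dpy-14 at 8.13 CPM per kb, sqt-3 at 6.40, dpy-17 at 4.43, dpy-2 at 0.965, dpy-8 at 0.782, dpy-7 at 0.533, dpy-10 at 0.438, dpy-3 at 0.355, dpy-13 at 0.347 and dpy-5 at 0.158. There no neighbours from dpy-2 downward differed beyond counting error. The gene dpy-8 thus ranked eighth in both replicate 1 libraries and higher in both replicate 2 libraries, where the other furrow genes were low. Over groups, the SD between replicates was nearly as large as the mean or larger for dpy-14, at 43.0 ± 42.0 CPM per kb (SD, n = 2) in wild type and 67.6 ± 84.2 in mutant larvae.

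The ratios among the abundant members were steadier than their levels. Per kb, sqt-3 stood to dpy-17 as 1.02 (0.953 to 1.095) and 1.02 (0.869 to 1.19) in wild type replicates 1 and 2 and as 0.960 (0.907 to 1.02) in mutant replicate 1. In mutant replicate 2, the library with the lowest level of both, the ratio was 1.44 (1.19 to 1.76). Between dpy-14 and dpy-17 the ratio per kb was between 1.55 and 1.84 in the 4 libraries, with overlapping intervals, although the level of dpy-17 spanned 4.43 to 75.3 CPM per kb. The neighbours dpy-10 and dpy-2, which flank T14B4.19 on chromosome II, kept no such constant ratio. Per kb, dpy-10 stood to dpy-2 as 1.03 (0.817 to 1.30) and 1.15 (0.947 to 1.41) in replicate 1 of wild type and mutant larvae, and as 0.651 (0.434 to 0.971) and 0.454 (0.269 to 0.752) in replicate 2.

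The first comparison of the design is between the groups. With edgeR's quasi-likelihood test none of the 9 tested members passed an adjusted p of 0.05 (0 higher, 0 lower), against 0% of the 15008 tested genes in either direction. At an unadjusted p under 0.05 there were 0 members and 2185 genes. DESeq2 also called 0 members, against 2.45% of tested genes called higher and 1.92% called lower. The edgeR log2 difference of mutant against wild type was 0.55 for sqt-3 (SE 1.18, adjusted p = 0.888), 0.59 for dpy-14 (SE 1.30, adjusted p = 0.891) and 0.60 for dpy-17 (SE 1.29, adjusted p = 0.889). In the furrow class it was 0.27 for dpy-2, 0.92 for dpy-3, 0.25 for dpy-7, 0.44 for dpy-10 and -0.54 for dpy-8 (SE 0.29, adjusted p = 0.481), and for dpy-13 it was 0.99 (SE 0.77). With these standard errors, differences of 2-fold in either direction were not detectable for most members. The groups did not overlap in 2 of the 10 genes, dpy-8 (lower in mutant larvae) and dpy-13 (higher), whereas 45.3% of all tested genes had no overlap (18.3% lower and 27.1% higher). The gene dpy-13 passed the filter on low counts only through the mutant libraries, where it was higher. Its group values are therefore no evidence of a difference. Because whole larvae were sequenced, fewer epidermal cells and less RNA per cell cannot be told apart.

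Which group appeared higher depended on the replicate number. Within replicate 1, mutant larvae were above wild type by 1.75-fold (1.66 to 1.84) for dpy-14, 1.80-fold (1.69 to 1.92) for dpy-17 and 1.70-fold (1.59 to 1.81) for sqt-3, intervals from counting error alone. Within replicate 2 they were below it, at 0.610 (0.525 to 0.708), 0.514 (0.425 to 0.620) and 0.730 (0.619 to 0.861) times wild type. For the furrow genes dpy-2, dpy-3, dpy-7 and dpy-10 the ratio was 1.51 to 2.68 within replicate 1 and 0.319 to 0.720 within replicate 2, where the intervals of dpy-2 and dpy-3 spanned equality. The descending order mutant replicate 1, wild type replicate 1, wild type replicate 2, mutant replicate 2 held for these 7 members, and for 5.81% of tested genes. With 1 library for each group and number, no residual degrees of freedom remain to test whether the replicate difference is wider in one group. Leaving out mutant replicate 1 turned the group difference of all 7 negative, with edgeR log2 values from -2.50 for dpy-17 to -1.17 for dpy-2. Without mutant replicate 2 it was positive in all 7, from 0.97 for dpy-2 to 1.79 for dpy-3. Without wild type replicate 1 it was 0.91 for dpy-2 to 2.22 for dpy-14, and without wild type replicate 2 it was -0.22 for dpy-7 to 0.48 for dpy-3. No member passed the test in any of these fits, nor with the replicate number as a block (0 members, against 10.3% of tested genes higher and 1507 genes lower).

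The second comparison is between replicate numbers, since cuticle genes cycle with the molt. The labels do not say what a number stands for. In edgeR with group as a second term, 7 of 9 tested members were lower in replicate 2 and 0 were higher, against 10.4% of tested genes lower and 7.61% higher. That fit leaves 1 residual degree of freedom. On simulated counts it called more unchanged genes than its threshold allows, which limits all replicate p-values from edgeR given here. The log2 difference of replicate 2 against replicate 1 was -3.12 for dpy-14 (SE 0.29, adjusted p = 0.000567), -3.07 for dpy-17 (SE 0.34, adjusted p = 0.00113) and -2.82 for sqt-3 (SE 0.23, adjusted p = 0.000435). These placed 34th, 40th and 54th among the 15008 genes ordered from the largest fall. The furrow genes followed with -2.57 for dpy-10 (adjusted p = 0.00327), -2.23 for dpy-3 (adjusted p = 0.019), -2.21 for dpy-7 (adjusted p = 0.0134) and -1.62 for dpy-2 (adjusted p = 0.0077). The genes that did not pass were dpy-8, at -0.13 (SE 0.27, adjusted p = 0.77), and dpy-13, at -0.82 (SE 0.62, adjusted p = 0.402). The median over all tested genes was 0.01. DESeq2 called 6 of the 7, all but dpy-7 (adjusted p = 0.15), against 5.07% of tested genes lower, and 0 members higher, against 3.06%. By level, replicate 1 was at least 2-fold above replicate 2 in both groups for 7 of the 9 tested members and for 4.31% of tested genes. The calls ended when the group term was left out (0 members and 0% of genes lower), where sqt-3 was at -2.85 with an adjusted p of 0.255.

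**Figure D2:**
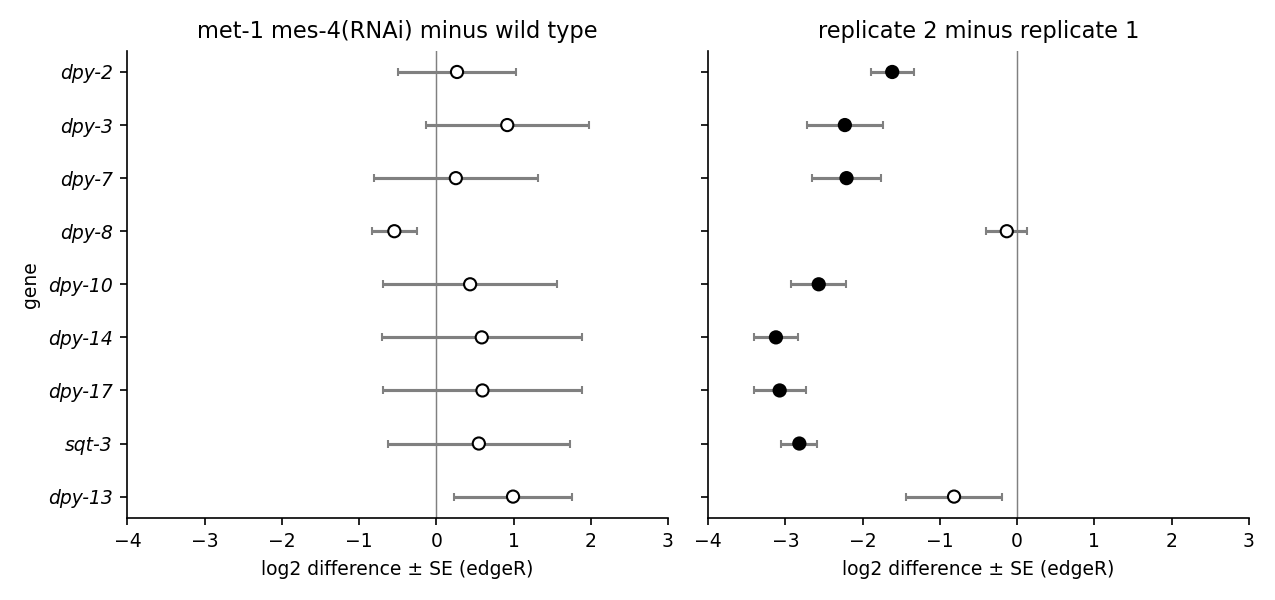
Log2 difference with its standard error from edgeR for the 9 tested members, on the left between mutant larvae and wild type and on the right between replicates 2 and 1, with filled points past an adjusted p of 0.05. On the left no point is filled. On the right 7 are, from -3.12 to -1.62, and dpy-8 at -0.13 and dpy-13 at -0.82 are open.

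**Figure D3:**
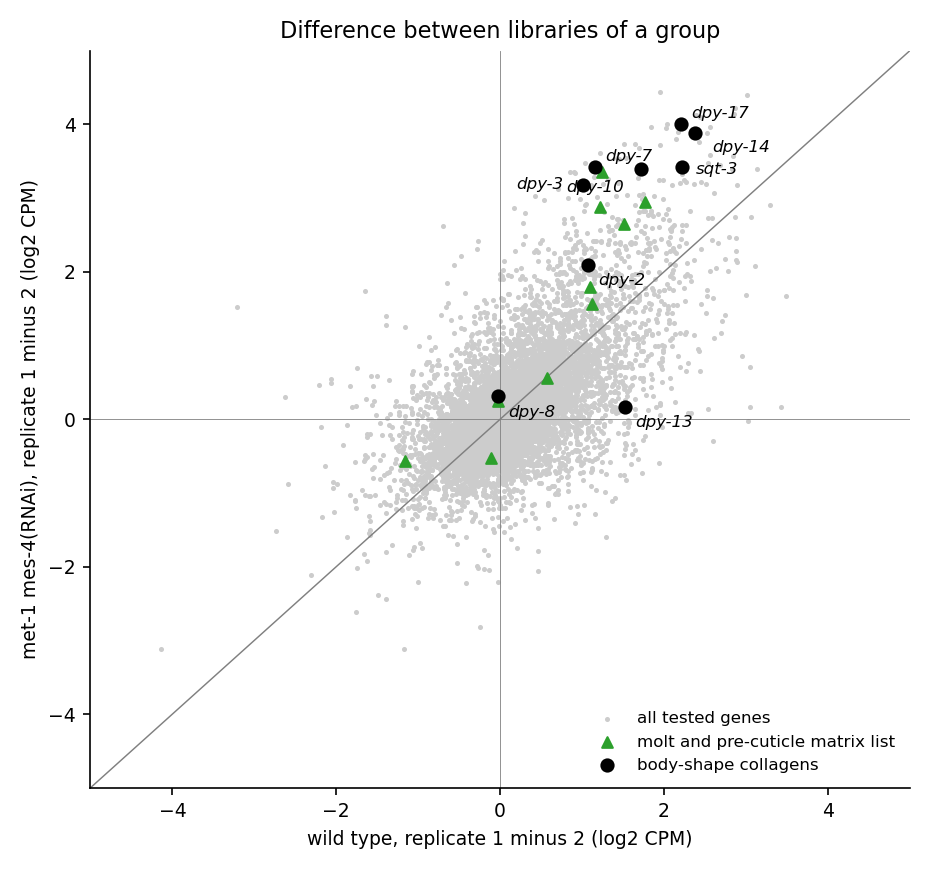
Difference of replicate 1 minus replicate 2 (log2 CPM) in wild type (x axis) and in mutant larvae (y axis) for all 15008 tested genes (grey), the 9 tested body-shape collagens (black) and the list of molt and pre-cuticle matrix genes (green). The line marks equal differences, and 7 collagens lie above it to the upper right, with dpy-8 near the origin.

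Genes that act on collagens after translation mostly did not share this pattern. Of the list of 13 genes for folding, cleavage and crosslinking, 11 were tested. Among these, 2 were lower in replicate 2 and 0 higher, against 10.4% and 7.61% of tested genes. One was dpy-31, the gene of the astacin protease that processes SQT-3, at 109.6 and 61.1 CPM in wild type and 115.5 and 63.0 CPM in mutant larvae (log2 -0.79, adjusted p = 0.000567). Its replicate folds of 1.79 and 1.83 were nearly equal in the 2 groups, unlike those of sqt-3. The other was mlt-11, which encodes a Kunitz-type protease inhibitor, at 41.9 and 7.61 CPM in wild type and 76.8 and 4.13 CPM in mutant larvae (-3.23, adjusted p = 0.000834). This gene had the same order of libraries as sqt-3. The prolyl 4-hydroxylase subunit genes dpy-18, phy-2 and pdi-2, whose products modify collagen chains during folding, differed between replicates by at most 0.24 on the log2 scale in the fit and did not pass.

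Genes of the molt and of the pre-cuticle matrix, the transient layer under which new cuticle is built, mostly moved with the collagens. Of 10 tested, 7 were lower in replicate 2 and 1 was higher, against 10.4% and 7.61% of tested genes. The median log2 difference was -1.42. The ZP-domain genes noah-1 (-2.08, adjusted p = 0.00105) and noah-2 (-2.37, adjusted p = 0.000868) were lower, as were the fibrillin-like gene fbn-1 (-1.36, adjusted p = 0.000463) and the lipocalin gene lpr-3 (-2.06, adjusted p = 0.00658). The molting genes mlt-8 (-2.19), mlt-9 (-1.47) and mlt-10 (-0.56) also passed, the last not with DESeq2 (adjusted p = 0.125). For noah-2 the levels were 17.9 and 4.97 CPM in wild type and 29.7 and 3.62 CPM in mutant larvae, the library order of sqt-3. That order held for 5 of the 10 genes, against 5.81% of tested genes. The gene let-653, which encodes a ZP-domain mucin, went the other way (0.85, adjusted p = 0.00969). Between the groups, DESeq2 called 1 of these genes, mlt-10, as higher (adjusted p = 0.0139), against 2.45% of tested genes. Its levels were 7.96 and 5.12 CPM in wild type and 19.02 and 12.3 CPM in mutant larvae. The edgeR adjusted p of this difference was 0.174.

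Transcription regulators of the epidermis and the molt differed by less and largely in the other direction. Of 10 tested, 5 were higher in replicate 2 and 1 lower, against 7.61% and 10.4% of tested genes. Higher were nhr-23, a ROR-type nuclear receptor gene required for molting (0.68, adjusted p = 0.0149), the nuclear receptor gene nhr-25 (0.36), myrf-1, which encodes a membrane-bound transcription factor of the molt (0.70, adjusted p = 0.00275), and the epidermal GATA factor genes elt-1 (0.43) and elt-3 (0.32). The Grainyhead gene grh-1 was lower (-0.44, adjusted p = 0.0261). Of these 6, DESeq2 called myrf-1 only. The level of nhr-23 was 6.88 and 11.97 CPM in wild type and 8.60 and 11.6 CPM in mutant larvae, so it was low where sqt-3 was high. The epidermal markers, which include elt-3, summed to 3078 and 3651 CPM in wild type and 4223 and 4633 CPM in mutant larvae. Of these 6 markers, edgeR called 3 higher in replicate 2, lin-26, elt-3 and mup-4, and 0 lower, against 7.61% and 10.4% of tested genes. Of these 3, DESeq2 called mup-4 (adjusted p = 3.5e-07) but not lin-26 (adjusted p = 0.236) or elt-3 (adjusted p = 0.227). The largest increases in CPM were those of mup-4 and vab-10, while che-14, at 1.62 and 1.44 CPM in wild type and 1.79 and 1.40 CPM in mutant larvae, and sma-1, at 1098 and 1034 CPM and 1265 and 1118 CPM, were below replicate 1 in both groups without passing. Of 6 body wall muscle markers, 5 were higher in replicate 2 and 0 lower, against the same shares of tested genes. The muscle markers summed to 5556 and 6739 CPM in wild type and 6558 and 8563 CPM in mutant larvae. Their part in the replicate difference was not tested.

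Other body-shape and blister collagens had too few reads to show whether they followed the 10 members. Of 10 such genes, 9 were in the table and 4 were tested, with 3 to 36 reads in a library. Between replicate numbers they had 0 edgeR or DESeq2 calls, and 0 between the groups (1 and 2 at an unadjusted edgeR p under 0.05). The sixth furrow collagen gene, dpy-9, had 6 and 5 reads in wild type and 13 and 17 in mutant larvae (group log2 1.41, adjusted p = 0.306). This gene passed the filter on low counts only through the mutant libraries, where it was higher. The collagen gene rol-8 had 12 and 15 reads against 29 and 36 (1.24, adjusted p = 0.267). The collagen gene lon-3, with 11 and 5 reads against 13 and 3, had the library order of sqt-3 but did not pass (replicate log2 -1.61, adjusted p = 0.108). Its replicate 1 was 2.16-fold (0.690 to 7.91) above replicate 2 in wild type and 5.23-fold (1.44 to 28.6) in mutant larvae. The squat and roller genes sqt-1, sqt-2 and rol-6 had at most 10 reads in a library and were not tested.

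Of 155 genes named col, 81 were tested, and 19 were higher and 17 lower in replicate 2, against 7.61% and 10.4% of tested genes. Part of the family shared the pattern of the members. Replicate 1 was at least 2-fold above replicate 2 in both groups for 10 of the 81, against 4.31% of tested genes. The library order of sqt-3 held for 13 of the 81, against 5.81%. The 3 with the smallest p were col-165 (-3.03, adjusted p = 0.000243), col-144 (0.97, adjusted p = 0.000376) and col-65 (-2.66, adjusted p = 0.000411), of which col-144 is the most abundant and opposite in sign. Summed over the col family, CPM was higher in replicate 2, at 1687 and 2232 in wild type and 2415 and 3776 in mutant larvae. The sum of the 10 body-shape collagens went from 190.5 to 41.8 CPM and from 330.1 to 25.7 CPM. Between the groups, edgeR called 0 of the 81 col genes. DESeq2 called 7 higher in mutant larvae and 0 lower, against 2.45% and 1.92% of tested genes. The groups did not overlap for 37 col genes higher in mutant larvae and 0 lower, against 27.1% and 18.3% of tested genes. Basement membrane and other non-cuticle collagens had 0 calls among 4 tested by edgeR or DESeq2 (2 at an unadjusted edgeR p under 0.05). They include let-2, a type IV collagen chain (0.21, adjusted p = 0.198), cle-1, the type XVIII collagen gene (0.26, adjusted p = 0.0604), and the transmembrane collagen gene col-99 (-0.32, adjusted p = 0.145).

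**Figure D4:**
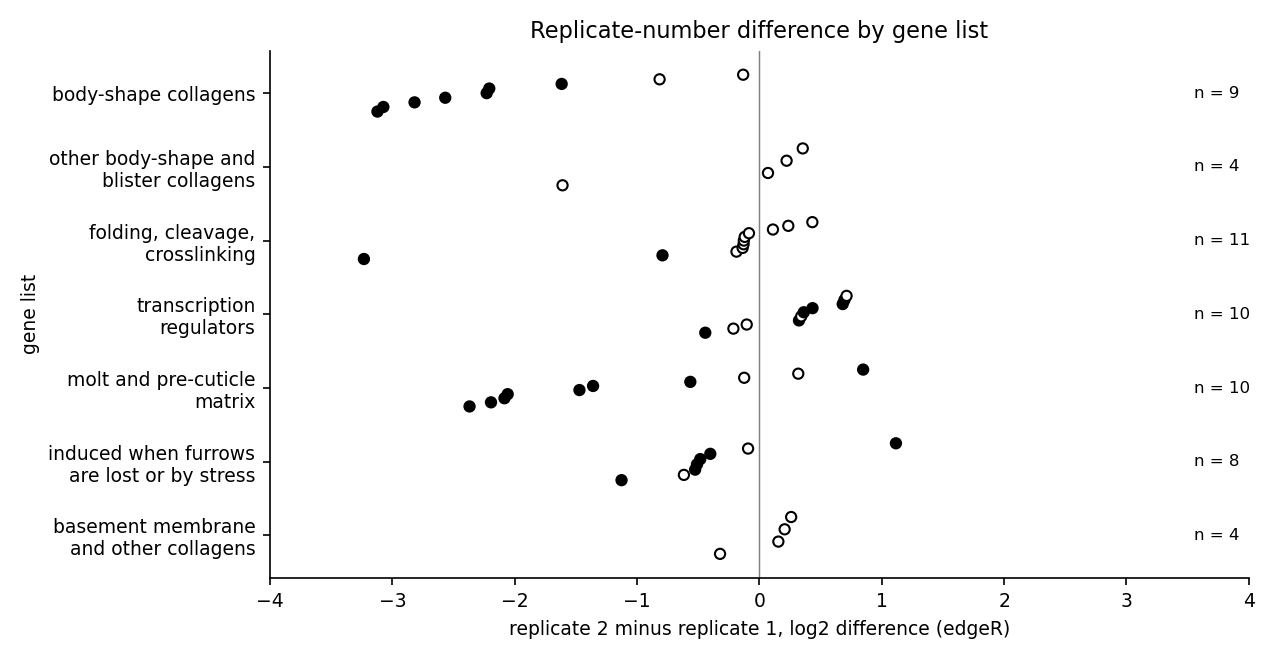
Log2 difference of replicate 2 minus replicate 1 from edgeR for each tested gene (points) of the body-shape collagens and 6 lists of related genes (rows), filled where the adjusted p was under 0.05. The body-shape collagens reach -3.12, the folding, cleavage and crosslinking list -3.23 (mlt-11) and the molt and pre-cuticle matrix list -2.37. The transcription regulators lie between -0.44 and 0.71.

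Loss of furrow collagens is known to switch on genes of osmotic, antimicrobial and detoxification responses. In replicate 2 the RNA of dpy-2, dpy-3, dpy-7 and dpy-10 was lower than in replicate 1, while that of dpy-8 was close. The furrows themselves were not observed, and a link between the response genes and the collagens was not tested. Of 8 such response genes, 5 were lower in replicate 2 and 1 was higher, against 10.4% and 7.61% of tested genes. Lower were the glutathione S-transferase gene gst-4 (-1.13, adjusted p = 0.000243), gcs-1, a glutathione synthesis gene (-0.51), the antimicrobial peptide genes nlp-29 (-0.40) and nlp-31 (-0.48), and the inositol transporter gene hmit-1.1 (-0.53). Higher was gpdh-1, a glycerol synthesis gene induced by osmotic stress (1.12, adjusted p = 0.00337). DESeq2 called 3 of the 5 lower, not nlp-29 (adjusted p = 0.155) or nlp-31 (adjusted p = 0.0505). The levels of gpdh-1 were 12.2 and 31.3 CPM in wild type and 8.42 and 13.6 CPM in mutant larvae. Without the replicate number in the fit, none of the 8 was called between the groups by either tool (0 by edgeR, with 1 at an unadjusted p under 0.05, and 0 by DESeq2).

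The genes outside the members whose pattern was nearest to the mean of the 5 furrow collagens were found by Euclidean distance over 4 libraries, among genes of at least 5 CPM. They were atf-2, a bZIP transcription factor gene (distance 0.151 in log2 CPM), pqn-73 (0.198), B0393.5 (0.234), T06D8.10 (0.245) and lgx-1 (0.324). By the same measure the distance to that mean was 0.338 for dpy-2, 0.649 for dpy-3, 0.739 for dpy-7, 0.826 for dpy-10 and 1.73 for dpy-8. The mean includes dpy-8, so it lies between the profile of dpy-8 and those of the other furrow genes. The level of atf-2 was 7.48 and 3.47 CPM in wild type and 11.5 and 2.14 CPM in mutant larvae. Nearest to sqt-3 were F41F3.3 (0.227), col-165 (0.264) and lam-3, a laminin alpha chain gene (0.292), ahead of the member dpy-14 at 0.368. Closeness over 4 libraries describes these libraries only.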

How the data were processed

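RNA-seq counts of 4 libraries were analysed. The authors deposited raw counts per gene with the gene model length, without normalization, and a table of log2 values. By calculation from the values, the deposited log2 table holds counts multiplied by a library factor (0.887 to 1.07), plus 8, in log2. The genome build was ce10, per the submitters' processing notes, and the aligner, counter, annotation and strand handling are not given in the sources used. Symbols and chromosomes came from the Ensembl 115 annotation of WBcel235, a different build, so no coordinates are given.

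CPM was the count divided by the library total. In R 4.3.3, filterByExpr of edgeR 4.0.16 (minimum count 10) left 15008 genes, including 9 of 10 members, and the quasi-likelihood F-test with TMM scaling and Benjamini-Hochberg adjustment over all genes was the main test (threshold 0.05, SE the log2 difference over the square root of F). DESeq2 1.42.0 and limma 3.58.1 were alternatives. The replicate number was tested in a fit with group, which leaves 1 residual degree of freedom. On simulated counts with known changes both fits recovered the direction and size of changes, and the replicate test called more unchanged genes than its threshold allows. The p-values measure only the spread between these libraries. Fold intervals between libraries are exact binomial (Clopper-Pearson, 95%) and cover counting error only, as do limits for a count of 0 (3 counts).

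Members and lists were chosen with earlier results of these data known. Named genes were the members, met-1, mes-4, and list genes past the threshold in either edgeR comparison, otherwise up to 3 with the smallest p (for the col family 3 in all), and the group values of mlt-10, the prolyl 4-hydroxylase subunits and the untested sqt and rol genes were added after they were seen. Alternatives were scaling, filter, tool, the replicate number as a block, and leaving out each library. Sequences and promoter motifs were not analysed here.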

Additional observations from a re-analysis of the deposited data

Results flagged for a closer look

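The furrow collagen gene dpy-9 had opposite differences between replicates 2 and 1 in the 2 groups, at -0.23 (log2 CPM) in wild type and 0.12 in mutant larvae, which differ by 0.35. It rested on 5 to 17 reads per library, and the difference was not tested.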

How the results depend on the processing

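The count of members called between the groups was 0 higher and 0 lower in every alternative run, 0 to 0 when single libraries were left out. With the replicate number as a block (replicate block) it was also 0, with sqt-3 at 0.21 and dpy-7 at -0.12 (log2, reversed). That block raised the calls over all genes to 1540 higher and 1507 lower, and those in the related lists from 0 to 39 higher and 1 lower. Among these were 4 of the 8 genes induced when furrows are lost, gst-4, nlp-29 and nlp-31 as higher and gpdh-1 as lower, and mlt-10, fbn-1, let-653, pdi-2 and mlt-7 as higher. Without that block, DESeq2 called 8 genes of the related lists as higher. Over the 15008 tested genes the replicate differences of the 2 groups correlated at 0.646. The labels give no shared source for a number, so this is a hint from the data, not the design. The block changed no call of a member.

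The group direction of uncalled members turned with limma-voom for dpy-2 (-0.052), dpy-7 (-0.60), dpy-10 (-0.27), dpy-14 (-0.060) and dpy-17 (-0.17), and with limma on the authors' normalized values for dpy-7 (-0.32), dpy-10 (-0.034) and dpy-17 (-0.038). Leaving out single libraries gave log2 values from -1.17 to 0.97 for dpy-2, -1.59 to 1.79 for dpy-3, -2.40 to 1.13 for dpy-7, -2.17 to 1.56 for dpy-10, -2.40 to 2.22 for dpy-14, -2.50 to 2.08 for dpy-17 and -2.002 to 2.04 for sqt-3. The replicate difference of dpy-9 turned to -0.0087 on the authors' values.

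Between replicate numbers, 7 members were lower, 6 with DESeq2, 4 with a filter of 5 CPM in 2 libraries (which tests fewer genes) and 0 without the group term. The remaining scalings, filters and limma fits gave 7. The cause of the other changes was not tested. Depth limits dpy-5 and dpy-13 most.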
